A study of Mus musculus with 4 samples.

Results

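The platelet-derived growth factor (PDGF) system was followed through every cell type of injured and uninjured mouse Achilles tendon. Its 6 genes, the ligand genes Pdgfa, Pdgfb, Pdgfc and Pdgfd and the receptor genes Pdgfra and Pdgfrb, were taken by gene symbol from the 33696 genes of the count files, and each symbol was listed once in every library. In annotation of the GRCm38 build, matched by gene ID, Pdgfa and Pdgfra lie on chromosome 5, Pdgfb on 15, Pdgfc on 3, Pdgfd on 9 and Pdgfrb on 18. The members were taken by name as a gene family, with earlier results of these data known.

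PDGF ligands are secreted dimers that bind tyrosine kinase receptors on mesenchymal cells and drive their division, migration and matrix production. The A and B chains are cleaved inside the cell, whereas the C and D chains are secreted with a CUB domain that extracellular proteases must remove. PDGFRα binds the A, B and C chains and is a common marker of fibroblasts, and PDGFRβ binds the B and D chains and marks pericytes and vascular smooth muscle, which are drawn to new vessels by PDGF-B from endothelium.

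The 4 droplet-based single-cell RNA libraries were uninjured tendon of neonates at postnatal day 3 (neonate control), injured tendon of neonates of that labelled age (neonate injury), uninjured tendon of adults aged 6 to 8 weeks (adult control) and injured tendon of adults (adult injury). All were suspensions of cells freed with collagenase. The labels give no strain, sex, number of mice, kind of injury or time from injury to harvest. With 1 library in each group, differences between groups carry neither replicate error nor a p-value, and every interval is a 95% interval that covers counting error only. Where 4 values are listed, the neonatal pair comes first and the adult pair second, with the control before the injured library in each.

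After filtering, 9521, 12941, 5792 and 4440 cells were kept, with medians of 10333, 5541, 9536 and 10198 UMIs (unique molecular identifiers, 1 for each captured RNA molecule). Pairs of libraries shared 3 to 49 barcode sequences among 5003 to 16327. Of stroma cells, 86.0% in neonate control held UMIs of Y-linked genes and none of Xist, against 15% in neonate injury, 0% in adult control and 0.0907% in adult injury. The neonatal injury and age comparisons thus also set mostly Y-positive cells against mostly Xist-positive cells. Neonatal ratios were therefore also computed with the Y-positive cells of neonate injury alone.

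Cell types were gated on marker UMIs, and no PDGF gene was used. Stroma, the fibroblast lineage, had at least 3 UMIs of Col1a1, at most 1 of Ptprc and none of Cdh5, and held 7172, 9585, 3625 and 2205 cells. Of these, 2683, 2473, 275 and 509 also passed the gate of another type. In neonates this type was mostly chondrocyte, Schwann, pericyte or myogenic. In adult control it was mostly smooth muscle or pericyte, and in adult injury mostly pericyte or macrophage. Cartilage markers Col2a1 and Col9a1 summed to 2698 CPM (UMIs of a gene per 1000000 UMIs of all genes) in stroma of neonate control, against 367, 6.94 and 8.49. Stromal values are therefore given for the whole gate and for the 4489, 7112, 3350 and 1696 cells that passed no other gate, called stroma only. The part of these other cells in any difference between libraries was not tested.

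The blood endothelial gate held 380, 967, 773 and 456 cells, and all 7 of its listed markers were detected in at least 25% of cells in every library. The macrophage gate held 232, 904, 161 and 1077 cells with all 8 markers so detected. Of the 601, 491, 116 and 186 pericyte-gated cells, 496, 434, 58 and 183 also passed the stroma gate. In adult injury the mural markers Myh11, Rgs5 and Kcnj8 summed to 1047 CPM in pericyte-gated cells, against 2397, 2917 and 5714 CPM in the other libraries, so pericyte values of adult injury come largely from Col1a1-positive cells with a weak mural profile. The smooth muscle gate held 194, 113, 310 and 51 cells with 4741, 6604, 7032 and 6405 CPM of these markers. The chondrocyte gate of adult injury held 112 CPM of cartilage markers, against 20042 in neonate control, and its values are drawn but not described.

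**Figure D1:**
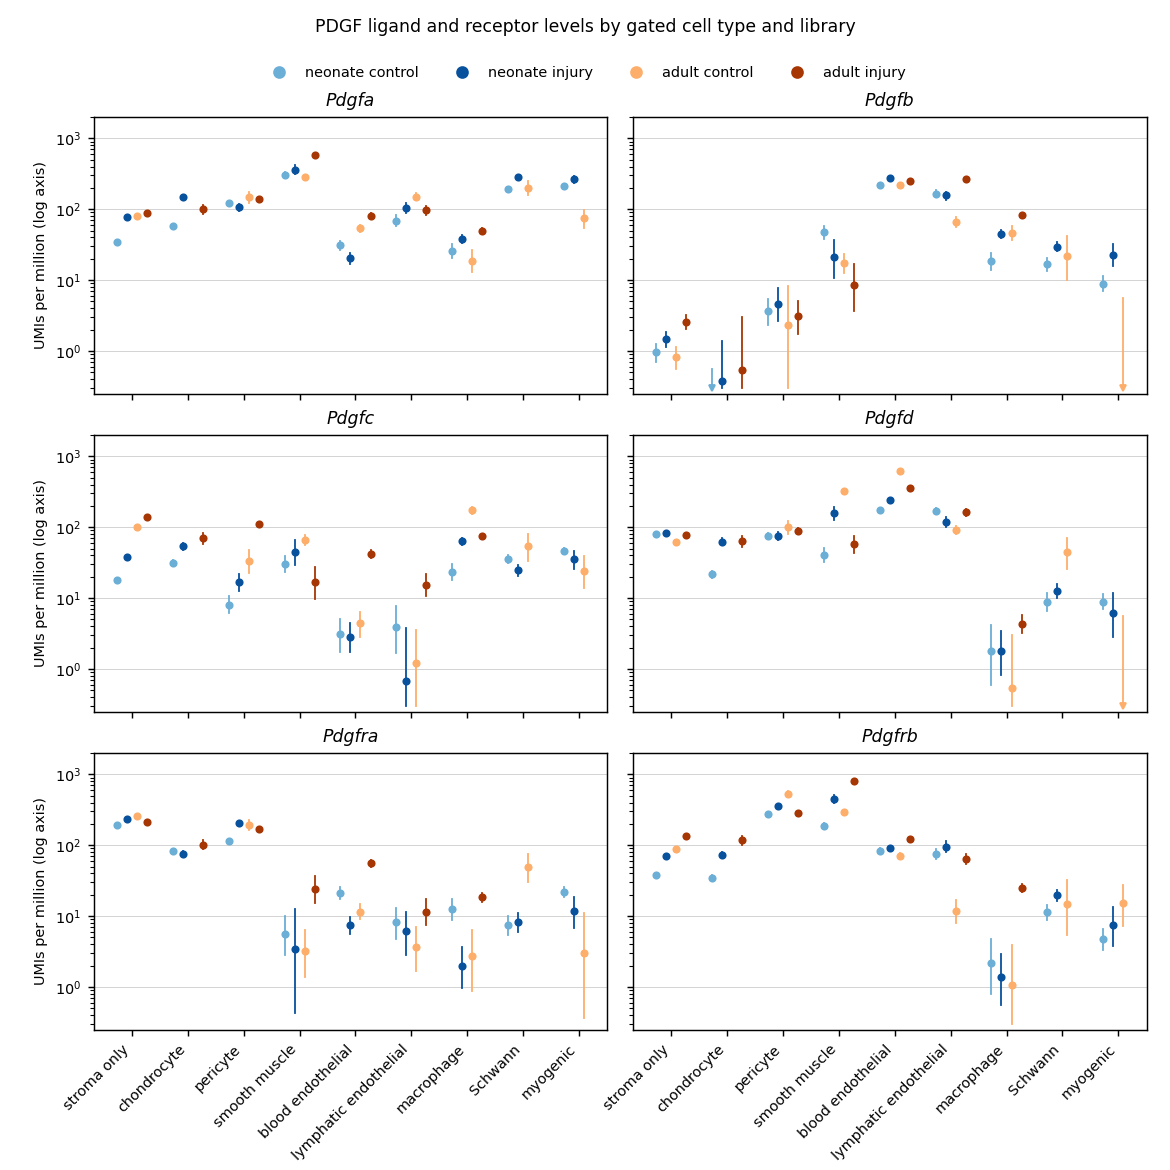
Level of each PDGF gene, in CPM on a log axis, in 9 gated cell types (stroma only means stroma cells passing no other gate) and 4 libraries (colours). Points are sums over the cells of 1 library, bars are exact Poisson 95% intervals, triangles mark values below the axis, and a type with fewer than 50 cells has no point. Pdgfb stands out in the endothelial types, at 66.6 to 273 CPM, and Pdgfra in stroma only, at 191 to 262 CPM.

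Pdgfa, the A chain, was most abundant in vascular smooth muscle in every library. Its level there was 307, 362, 282 and 576 CPM, and the intervals did not overlap those of the type ranked next in any library. Schwann cells carried 191, 286 and 200.2 CPM in the 3 libraries with at least 50 such cells. Myogenic cells carried 215, 263 and 74.3 CPM, and the intervals of Schwann and myogenic cells overlapped in neonate injury only. Macrophages and blood endothelium were low, at 18.8 to 49.3 and 20.2 to 79.3 CPM.

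Stroma only carried 34.5, 77, 80.2 and 87.9 CPM of Pdgfa. The neonate control library was the low one and the other 3 lay close together. Neonate injury to neonate control gave a log2 ratio of 1.16 (1.08 to 1.24) in stroma only and 0.62 (0.57 to 0.67) over the whole gate, where Pdgfa was at 69.8, 107, 88.9 and 105 CPM. The neonatal whole-gate ratio was 0.46 with Y-positive cells of neonate injury only. Of the stroma cells, 447 in neonate control and 1089 in neonate injury also passed the Schwann gate, and 359 and 116 the myogenic gate, both rich in Pdgfa. Adult injury to adult control gave 0.13 (0.06 to 0.20) in stroma only and 0.25 (0.18 to 0.31) over the whole gate.

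Because it was abundant, stroma only held more Pdgfa molecules than any other gated type. In neonate control its share was close to that of myogenic cells. Stroma only carried 21.0%, 45.9%, 54.3% and 46.2% of all Pdgfa UMIs of a library, from 45.3%, 55.7%, 64.7% and 49.1% of the UMIs of all genes. In every library its share of Pdgfa was below its share of all RNA. Myogenic cells gave 19.9% and Schwann cells 13.9% of the Pdgfa UMIs in neonate control, and Schwann cells gave 21.5% in neonate injury, while in the adult libraries neither type gave more than 1.37%. Smooth muscle gave 11.8% in adult control from 4.00% of all UMIs.

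Within stroma, Pdgfa followed the tenocyte subset. This subset was gated on at least 2 of the tendon genes Tnmd, Scx, Mkx, Kera and Thbs4, and was set against the fibroblasts with at least 2 of Pi16, Dpp4, Sema3c, Anxa3 and Cd55, a widespread connective tissue type. Pdgfa was at 83.4, 179 and 133 CPM in tenocytes and at 18.0, 36.9 and 22.1 CPM in the Pi16 Dpp4 fibroblasts of neonate control, neonate injury and adult control. The log2 ratio of tenocytes to Pi16 Dpp4 fibroblasts was 2.21 (1.96 to 2.48), 2.27 (2.05 to 2.51) and 2.59 (2.40 to 2.78), the same direction in all 3 libraries. Adult injury had fewer than 50 tenocytes in stroma only. Its activated fibroblasts, with at least 2 of Lrrc15, Cthrc1, Kif26b and Adam12, held 116 CPM of Pdgfa against 19.3 in its Pi16 Dpp4 fibroblasts, a log2 ratio of 2.55 (1.88 to 3.41). In neonate injury the same subsets held 38.3 and 36.9 CPM.

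Pdgfb, the B chain that endothelium uses to attract pericytes, was concentrated in endothelial cells. Blood endothelium carried 223, 273, 220.5 and 250.5 CPM, a level that varied little between libraries under this gate. With at most 2 UMIs of Col1a1 blood endothelium held 243, 285, 233 and 359 CPM. With 1 more marker required it held 246, 273, 217 and 305 CPM. Adult injury was then the highest library in both cases. Lymphatic endothelium carried 165, 156, 66.6 and 264 CPM, where adult control was low and adult injury high. With 1 more marker required it was at 42.2, 74.0, 53.2 and 177 CPM, the first from 22 cells, so adult injury remained the highest library but adult control was not the lowest. The 68, 141, 190 and 84 lymphatic cells had median depths of 24042, 7485, 8315 and 14302 UMIs, and the macrophage markers C1qa and Adgre1 summed to 0.968, 6.12, 2.04 and 63.3 CPM in them. Macrophage markers were thus highest in the adult injury cells, and their part in its Pdgfb level was not tested. In stroma only Pdgfb was at 0.958, 1.47, 0.814 and 2.56 CPM. Adult myogenic cells of the control library had 0 UMIs, and at 3 counts the limit of detection was 4.55 CPM.

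The share of blood endothelial cells with a Pdgfb UMI was 62.1%, 66.8%, 63.8% and 64.3%. In stroma only, which should lack the gene and can hold it as free RNA, the share was 0.913%, 0.816%, 0.836% and 3.48%. Median depths were 8886, 5239, 5950 and 6708 UMIs in endothelium and 10472, 5795, 11316 and 17164 in stroma only. When each cell was thinned to 1000 UMIs, the endothelial shares were 17.7%, 23.2%, 20.5% and 22.5%, again close in all 4 libraries. Of the 86 Pdgfb UMIs in stroma only of adult injury, 44 lay in 186 cells that met none of the stromal subset lists described below, at 67.6 CPM.

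Within blood endothelium, Pdgfb and Pdgfd were both higher in arterial than in venous cells. Arterial cells, with at least 2 of Gja5, Sox17, Sema3g, Bmx, Gja4 and Hey1, held 317, 281 and 383 CPM of Pdgfb in neonate injury, adult control and adult injury. Venous cells, with at least 2 of Ackr1, Selp, Vwf, Nr2f2 and Lrg1, held 181, 145 and 151 CPM. Arterial to venous Pdgfb gave log2 ratios of 0.81 (0.53 to 1.09), 0.95 (0.72 to 1.18) and 1.34 (1.03 to 1.66). Tip-like cells, which lead vessel sprouts, had at least 2 of Apln, Esm1, Angpt2, Kcne3 and Pgf and held 242 and 289 CPM in the neonatal libraries. Neonate control had fewer than 50 arterial and fewer than 50 venous cells.

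Outside endothelium, the type with most Pdgfb differed between libraries. In neonate control it was smooth muscle, at 47.7 CPM (38.5 to 58.3), and its 94 UMIs, like the 99 of Schwann cells and 68 of myogenic cells, exceeded the 51 of macrophages. In the other 3 libraries it was macrophages. Macrophages carried 18.4, 45, 46.2 and 83.1 CPM, lowest in neonate control and highest in adult injury. The log2 ratio of injury to control was 1.28 (0.85 to 1.76) in neonates, 0.59 with only Y-positive cells of neonate injury, and 0.84 (0.53 to 1.18) in adults. Because macrophages made up 24.3% of the cells of adult injury, they held 26.9% of its Pdgfb UMIs, against 2.10%, 8.16% and 4.97% in the other libraries. Blood endothelium held 47.6%, 68.8%, 75.6% and 40.0%. In adult injury the lipid-associated macrophages, with at least 2 of Gpnmb, Trem2, Spp1 and Mmp12, held 92.7 CPM (85.2 to 101) and the monocytes, with at least 2 of Ly6c2, Ccr2, Plac8 and Chil3, 47.7 CPM (31.7 to 68.9), intervals that did not overlap.

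Pdgfc, a CUB-domain ligand of PDGFRα, changed its leading cell type from library to library and was sparse in the endothelium of 3 libraries. In neonate control it was highest in myogenic cells, at 46.2 CPM, followed by Schwann cells at 35.8, chondrocytes at 31.6 and smooth muscle at 30.4. Macrophages led in neonate injury, at 63.0 CPM with an interval that overlapped that of chondrocytes, and in adult control, at 174 CPM. Stroma only led in adult injury, at 140.2 CPM, above pericyte-gated cells at 110.1 CPM. In stroma only it was at 18.0, 38.2, 101 and 140.2 CPM, with both neonatal libraries below both adult ones. The log2 ratio of neonate control to adult control was -2.49 (-2.59 to -2.38), and over the whole gate, at 22.8, 37.8, 98.2 and 129 CPM, it was -2.11 (-2.18 to -2.03). This was the largest stromal age difference among the 6 genes under both gates. After injury the ratio was 1.08 (0.97 to 1.2) in neonates and 0.47 (0.41 to 0.53) in adults in stroma only, and 0.73 (0.64 to 0.81) and 0.40 (0.34 to 0.45) over the whole gate.

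Of the stromal subsets, the Pi16 Dpp4 fibroblasts showed the widest age gap of Pdgfc. They held 15.7, 25.5, 169 and 129 CPM, a log2 ratio of neonate to adult control of -3.43 (-3.68 to -3.20). Tenocytes held 28.5 and 69.8 CPM in the control libraries, a ratio of -1.29 (-1.55 to -1.04). The order of the subsets differed with age, since the log2 ratio of tenocytes to Pi16 Dpp4 fibroblasts was 0.86 (0.53 to 1.19) in neonate control and -1.28 (-1.41 to -1.15) in adult control. In the activated fibroblasts Pdgfc was at 17.0 and 18.3 CPM in the neonatal libraries and at 134 CPM in adult injury.

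Macrophage Pdgfc was 23.4, 63.0, 174 and 74.2 CPM. The adult control was the high library and the neonate control the low one. Injury to control gave 1.42 (1.04 to 1.83) in neonates and -1.23 (-1.42 to -1.03) in adults. Resident macrophages, with at least 2 of Folr2, Lyve1, Timd4 and Cd163, held 30.9, 75.4 and 187 CPM in neonate control, neonate injury and adult control, the same order as all macrophages. In adult injury fewer than 50 cells were in this subset, and its lipid-associated cells held 69.3 CPM. The neonatal ratio was 0.86 with Y-positive cells of neonate injury only and 2.17 with macrophages limited to 2 UMIs of Col1a1, both on the same side of 0.

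In blood endothelium Pdgfc was at 3.09, 2.86, 4.38 and 41.9 CPM. The value of adult injury stood apart, and Pdgfra was also highest there, at 21.0, 7.44, 11.6 and 56.0 CPM. With endothelial cells limited to 2 UMIs of Col1a1, which left 168, 527, 644 and 124 cells, Pdgfc was at 3.24, 4.50, 3.00 and 6.59 CPM and Pdgfra at 2.43, 2.86, 6.00 and 3.30 CPM. The adult injury ratio was then 1.25 for Pdgfc, against 3.23 over the whole gate, and -0.57 for Pdgfra, against 2.26. Pdgfra of adult injury was no longer the highest, and the neonatal ratio of endothelial Pdgfra, -1.49 over the whole gate, was 0.11. At these low levels the sign of neither limited Pdgfra ratio is settled.

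Pdgfd, the other CUB-domain ligand and a ligand of PDGFRβ, was highest in blood endothelium in every library. In neonate control its interval there overlapped that of lymphatic endothelium. Smooth muscle ranked next in neonate injury and adult control, where it was above stroma only. In neonate control and adult injury smooth muscle was below stroma only. The mural level of Pdgfd in neonate control depended on the gate. In blood endothelium Pdgfd was at 175, 239, 622 and 356 CPM. Adult control was the highest library and both neonatal libraries were below both adult ones. Neonate to adult control gave a log2 ratio of -1.83 (-1.94 to -1.72). After injury it was 0.45 (0.33 to 0.57) in neonates, 0.66 with Y-positive cells only, and -0.81 (-0.89 to -0.73) in adults. With endothelial cells limited to 2 UMIs of Col1a1 the levels were 231, 280.4, 666 and 603 CPM, so the adult injury ratio was -0.14, the neonatal one 0.28 and the age ratio -1.52.

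Arterial cells held most Pdgfd of the endothelial subsets. Their levels were 496, 1016 and 832 CPM in neonate injury, adult control and adult injury, against 175, 399.6 and 205 CPM in venous cells. Arterial to venous cells gave log2 ratios of 1.5 (1.24 to 1.77), 1.35 (1.22 to 1.48) and 2.02 (1.78 to 2.27). The adult injury ratio was -0.29 (-0.45 to -0.13) in arterial and -0.96 (-1.19 to -0.75) in venous cells, and the difference between these subsets was not tested.

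In smooth muscle Pdgfd was at 41.1, 157, 321 and 57.9 CPM. The 2 adult libraries thus differed widely, as did the 2 neonatal ones. Injury to control gave 1.93 (1.48 to 2.38) in neonates and -2.46 (-2.89 to -2.08) in adults, and neonate to adult control -2.96 (-3.32 to -2.64). The values of adult injury rest on 51 cells, 48 of which also passed the stroma gate. Pericyte-gated cells held 75.7, 74.3, 100.1 and 88.8 CPM. With at most 2 UMIs of Col1a1, pericytes held 0, 58.8 and 78.1 CPM in neonate control, neonate injury and adult control, from 105, 57 and 58 cells. Smooth muscle so limited held 7.21, 61.5 and 434 CPM, from 39, 7 and 176 cells. In adult injury this limit left 3 cells of each type. In stroma only Pdgfd varied least of the 4 ligands, at 79.6, 83.7, 62.7 and 78.2 CPM. Because of its number of cells, stroma only still held 56.4%, 57.9%, 32.1% and 45% of all Pdgfd UMIs, and blood endothelium 12.9%, 25.3%, 46.6% and 31.2%.

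**Figure D2:**
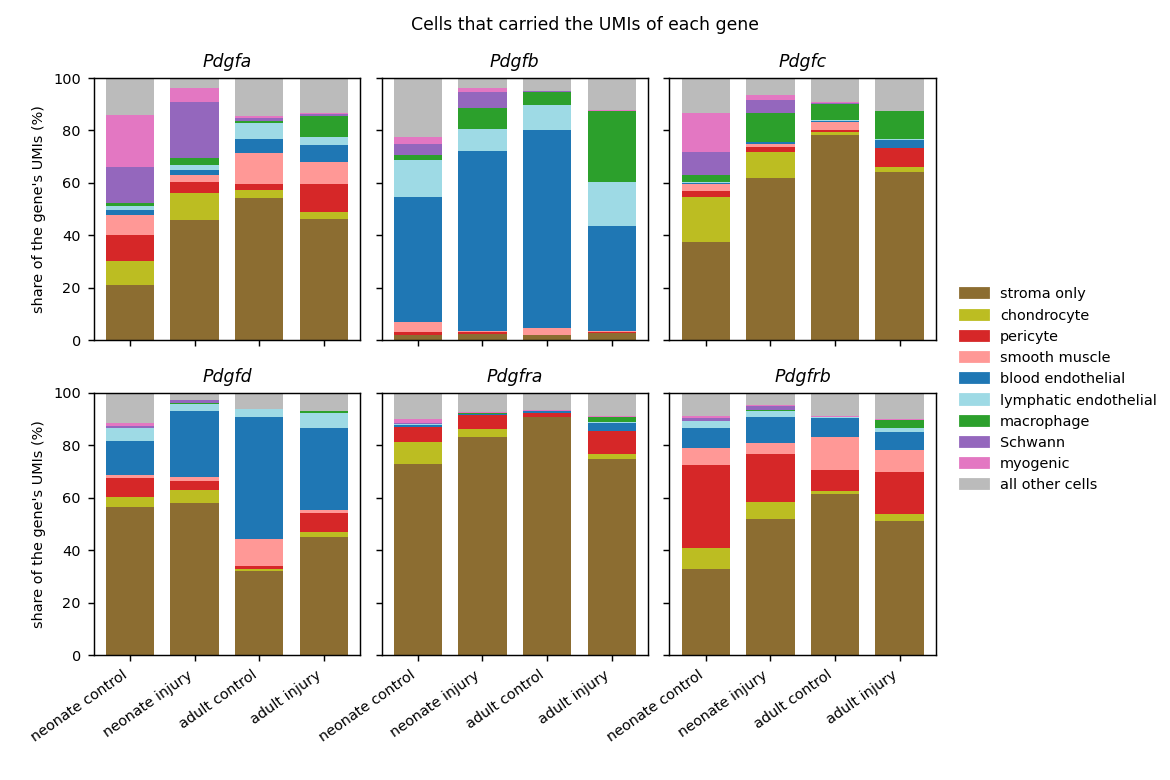
Share of each gene's UMIs (%) that lay in each gated cell type, with 1 bar per library, summing to 100% in each bar. Stroma only carried 72.9% to 90.7% of Pdgfra UMIs, blood endothelium carried 40.0% to 75.6% of Pdgfb UMIs, and all other cells (grey) hold those that passed no gate or at least 2 gates besides stroma and the smaller immune and erythroid types.

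Pdgfra, the receptor of the A, B and C chains, was highest in stroma in all 4 libraries. Stroma only carried 191, 231, 262 and 210.1 CPM, and the whole gate 144, 189.6, 249 and 190.3 CPM. The 2 controls were the lowest and the highest library. Pericyte-gated cells came next in every library, at 113, 204, 193 and 167 CPM, most of them also in the stroma gate except in adult control, where 58 of 116 were. Their level depended on the gate. With 1 more marker required it was 52.9, 121, 36.5 and 85.8 CPM. With at most 2 UMIs of Col1a1 it was 0 in both neonatal libraries, from 105 and 57 cells. In adult control it was then 33.5 CPM from 58 cells, and in adult injury 3 cells were left. Chondrocytes of the neonatal libraries held 82.1 and 76.1 CPM. Smooth muscle held 3.19 to 24.2 CPM and macrophages 1.99 to 18.3 CPM, with the highest value of each in adult injury. The share of stroma only cells with a Pdgfra UMI was 72.8%, 61.0%, 64.5% and 75.1%. It was 5.60%, 1.11%, 3.11% and 7.06% in macrophages, which should lack the gene, at median depths of 11630, 5310, 11064 and 7958 UMIs. Thinned to 1000 UMIs per cell, the stromal shares were 16.6%, 19.9%, 20.7% and 17.9% and ordered the libraries as the CPM did.

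The log2 ratio of injury to control for stromal Pdgfra differed in sign between ages. In neonates it was 0.40 (0.36 to 0.44) over the whole gate and 0.27 (0.23 to 0.31) in stroma only. In adults it was -0.39 (-0.43 to -0.35) and -0.32 (-0.36 to -0.28). The age ratio was -0.80 (-0.83 to -0.76) over the whole gate and -0.46 (-0.50 to -0.42) in stroma only. With Y-positive cells of neonate injury the neonatal ratio was 0.62. None of these came to 2-fold.

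Stromal subsets differed in how far they followed this pattern. In Pi16 Dpp4 fibroblasts Pdgfra was at 213, 329, 419 and 389 CPM, in the same order within each comparison as the whole gate, although the interval of the adult injury ratio held 0. In activated fibroblasts it was at 218 and 294 CPM in the neonatal libraries and at 251 CPM in adult injury. In tenocytes it was at 129, 137 and 131 CPM in the 3 libraries that held them, a log2 ratio of 0.08 (-0.07 to 0.23) for neonatal injury and -0.02 (-0.15 to 0.12) for age. Tenocytes were below Pi16 Dpp4 fibroblasts in all 3 libraries, with log2 ratios of -0.72 (-0.85 to -0.60), -1.27 (-1.40 to -1.14) and -1.68 (-1.77 to -1.58). This order was the opposite of that of its ligand Pdgfa. Stroma only cells outside every subset held 248, 349, 643 and 189 CPM, an adult injury ratio of -1.76 (-2.04 to -1.50). Their Pdgfb was at 2.77 CPM in adult control and 67.6 CPM in adult injury, near the 83.1 CPM of its macrophages, and the part of other cell types in this ratio was not tested. In the Pi16 Dpp4 fibroblasts the adult injury ratio was -0.10 (-0.27 to 0.06).

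**Figure D3:**
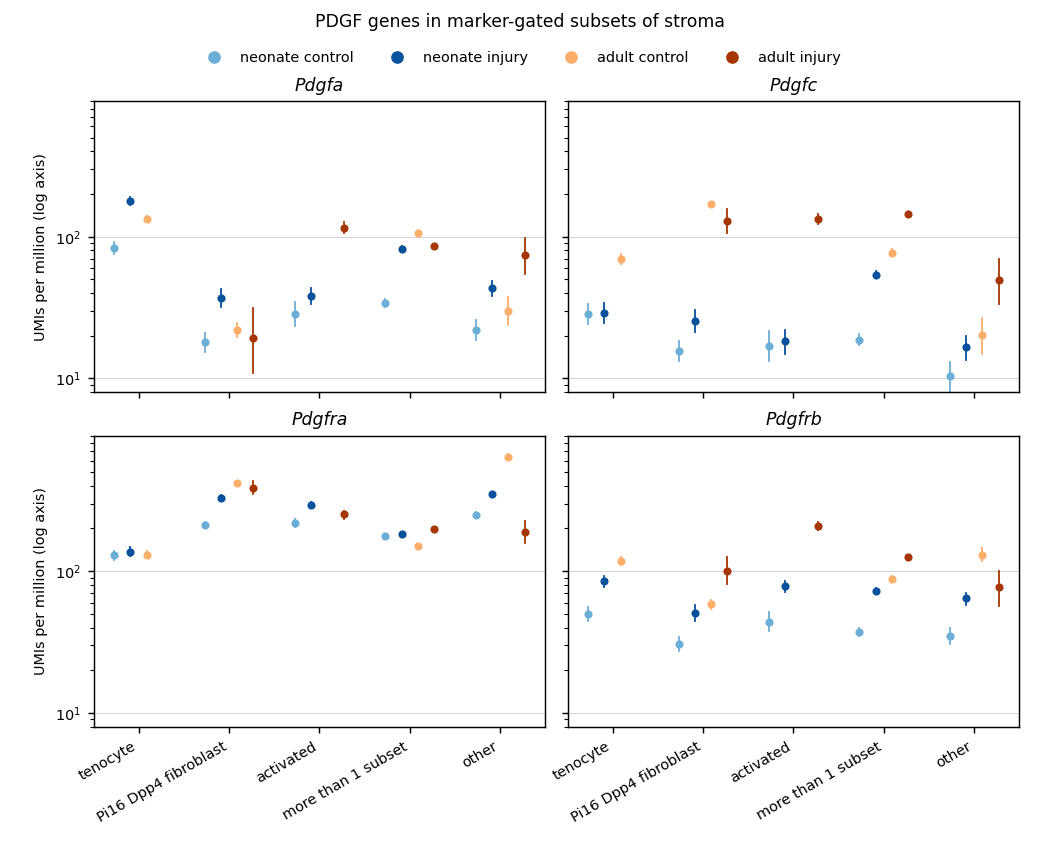
Level of Pdgfa, Pdgfc, Pdgfra and Pdgfrb, in CPM on a log axis, in marker-gated subsets of stroma only, with exact Poisson 95% intervals. Tenocytes lie above the Pi16 Dpp4 fibroblasts for Pdgfa and Pdgfrb and below them for Pdgfra, and tenocytes of adult injury have no point because fewer than 50 cells passed.

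The subsets are limited by how cells were sorted into them. A cell needed at least 2 markers of 1 list and fewer than 2 of another, and 1791, 2829, 1147 and 1081 stroma only cells met more than 1 list. Tenocytes also had fewer UMIs per cell than Pi16 Dpp4 fibroblasts, with means of 8647 against 11051 in neonate control, 5047 against 5549 in neonate injury and 9391 against 13817 in adult control.

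Pdgfrb, the receptor of the B and D chains, was highest in mural cells. Pericyte-gated cells carried 275, 355, 536 and 289 CPM, and smooth muscle 189, 449, 290.5 and 797 CPM. Smooth muscle was above pericytes in both injury libraries and below them in both controls, with intervals that did not overlap. This order depended on the gate. With 1 more marker required of each type, pericytes held 403, 582, 847 and 719.6 CPM and smooth muscle 173, 389, 199.6 and 687 CPM, the last from 24 cells, so that pericytes were above in all 4 libraries. Pericyte injury to control gave 0.37 (0.26 to 0.47) in neonates and -0.89 (-1.04 to -0.73) in adults, and the age ratio was -0.96 (-1.11 to -0.81). With at least 1 UMI of Kcnj8, Abcc9 or Higd1b also required, pericytes held 293, 363, 613 and 399 CPM. The adult injury ratio was then -0.62, and -0.24 with 1 more pericyte marker required. In smooth muscle injury to control gave 1.25 (1.01 to 1.48) in neonates and 1.46 (1.31 to 1.60) in adults.

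Stroma expressed Pdgfrb at lower levels than mural cells, and injury libraries were above their controls at both ages. Stroma only carried 37.5, 70.9, 87.7 and 135 CPM and the whole gate 52.1, 80.9, 95.9 and 165 CPM. The log2 ratio of injury to control was 0.92 (0.84 to 1.00) in neonates and 0.62 (0.56 to 0.68) in adults in stroma only, and 0.63 (0.58 to 0.69) and 0.78 (0.73 to 0.84) over the whole gate. It was 0.44 for the whole neonatal gate with Y-positive cells of neonate injury only. Neonate to adult control gave -1.22 (-1.31 to -1.14) in stroma only, past 2-fold, and -0.88 (-0.94 to -0.82) over the whole gate. The mural markers summed to 277, 209, 292 and 291 CPM in the whole stroma gate, and the part of mural cells in these ratios was not tested.

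Each stromal subset with values in both libraries showed the neonatal difference of Pdgfrb. Tenocytes held 49.8 and 84.7 CPM, Pi16 Dpp4 fibroblasts 30.5 and 50.7 and activated fibroblasts 44.1 and 78.3 CPM in neonate control and injury. In adult injury the activated fibroblasts were the highest subset, at 209 CPM, against 101 in its Pi16 Dpp4 fibroblasts. Tenocytes exceeded Pi16 Dpp4 fibroblasts by log2 ratios of 0.71 (0.47 to 0.95), 0.74 (0.52 to 0.97) and 1.02 (0.88 to 1.15) in the 3 libraries that held both. Cells outside every subset went the other way in adults, at 131 CPM in control and 76.8 in injury, and in adult injury these are the cells with 67.6 CPM of Pdgfb.

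Endothelium also gave Pdgfrb UMIs, at 82.7, 90.8, 70.0 and 121 CPM in the blood endothelial gate. Mural markers summed to 632, 758, 1049 and 991 CPM in the same cells, and the part of mural cells in endothelial Pdgfrb was not tested. With cells limited to 2 UMIs of Col1a1, endothelial Pdgfrb was at 31.6, 18.0, 39.2 and 74.2 CPM. Pdgfa and Pdgfrb, both high in mural cells, shared 11.3%, 5.27%, 6.60% and 14.9% of endothelial cells, above the products of their separate shares, 4.08%, 1.59%, 1.79% and 7.94%. After thinning to 1000 UMIs the shares were 0.489%, 0.217%, 0.284% and 0.817% and the products 0.142%, 0.0832%, 0.0955% and 0.431%. In macrophages Pdgfrb was at 2.16, 1.39, 1.07 and 24.9 CPM. Col1a1-limited macrophages of adult injury held 4.97 CPM.

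In the whole stroma gate the receptors were found together at shares on either side of the product of their separate shares. Both had a UMI in 18.7%, 18.3%, 33.1% and 52.2% of cells, where the products were 17.7%, 15.6%, 33.9% and 42.2%. After thinning to 1000 UMIs the shares were 0.491%, 1.14%, 1.87% and 2.12% and the products 0.627%, 1.17%, 2.01% and 2.05%. Among pericyte-gated cells both were found less often than the product in all 4 libraries after thinning, at 0.50%, 1.5%, 0.804% and 1.36% against 1.97%, 4.32%, 3.68% and 3.79%. In blood endothelium Pdgfb and Pdgfd shared cells a little more often than the product, with 3.64%, 5.64%, 9.59% and 8.13% against 3.05%, 5.04%, 8.23% and 6.66% after thinning. These are descriptions of cells of 1 library each and have no test.

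**Figure D4:**
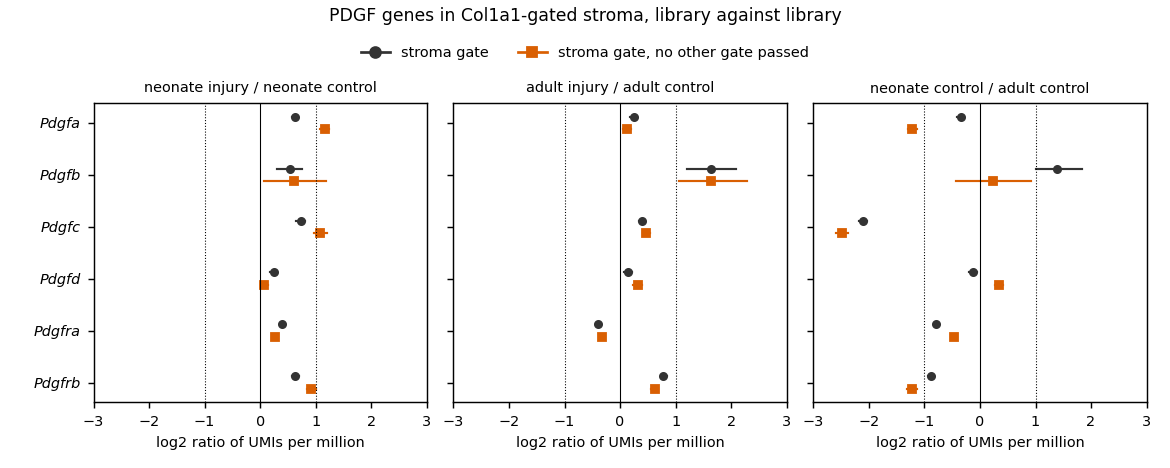
Log2 ratios of CPM between libraries for the 6 PDGF genes in the whole stroma gate (circles) and in stroma only (squares), with exact binomial 95% intervals and dotted lines at 2-fold. Pdgfc is the leftmost gene in the age panel, at -2.11 and -2.49, and Pdgfra has opposite signs in the 2 injury panels.

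The 6 genes were read against all genes with at least 50 UMIs in the 2 libraries compared. In the whole stroma gate 0 of 6 were past 2-fold in neonatal injury, where 21.3% of 17672 genes were. In adult injury it was 1 of 6 (Pdgfb, at 1.36 and 4.21 CPM) beside 32.2% of all genes, and for age 2 of 6 (Pdgfb higher and Pdgfc lower in neonates) beside 31.4%. In stroma only it was 2 of 6 beside 20.8% in neonatal injury (Pdgfa and Pdgfc), 1 of 6 beside 32.0% in adult injury (Pdgfb) and 3 of 6 beside 30.0% for age (Pdgfa, Pdgfc and Pdgfrb, all lower in neonates). With 6 genes, these counts do not set the members apart from the background.

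In blood endothelium 1 of 5 genes with enough UMIs was past 2-fold in neonatal injury beside 13.2% of all genes (Pdgfra, lower), 2 of 6 in adult injury beside 16.9% (Pdgfc and Pdgfra, the pair that moved with Col1a1) and 1 of 5 for age beside 26.5% (Pdgfd). In pericytes Pdgfc alone of 5 was past 2-fold in each comparison, beside 12.6%, 27.2% and 23.0%. Its neonatal ratio of 1.05 was 0.93 and 0.95 under the stricter and looser filters. It was 0.76 with a further pericyte marker and -0.36 with 1 more marker. With at most 2 UMIs of Col1a1 the level was 1.45 CPM in 105 cells of neonate control and 0 in 57 cells of neonate injury. The ratio of 0.43 under this limit took its sign from the counts added, so it gives no direction. The age ratio of pericyte Pdgfc, -2.06, was -0.41 with 1 more marker. In smooth muscle 3 of 5 were past 2-fold beside 12.5% in neonatal injury, 4 of 5 beside 28.1% in adult injury and 3 of 5 beside 19.7% for age. In macrophages it was 2 of 3 beside 15.9%, 4 of 5 beside 23.6% and 2 of 3 beside 18.5%. Several of these calls were lost under other settings. Both neonatal macrophage calls were lost with Y-positive cells of neonate injury, at 0.59 for Pdgfb and 0.86 for Pdgfc. With macrophages limited to 2 UMIs of Col1a1, the adult injury ratio of Pdgfra was 0.74 (2.64 before) and that of Pdgfc -0.99, while that of Pdgfrb was 2.32 (4.22 before). This limit left 127 cells in adult control and 186 in adult injury. Pdgfrb was then at 0.729 and 4.97 CPM and Pdgfra at 2.91 and 4.97 CPM, so both ratios rest on few counts. The neonatal call of Pdgfb in smooth muscle, at -1.14, was -0.99 with doublets kept, -0.88 with 1 more marker and -0.93 as a mean over cells. The adult call of Pdgfa in smooth muscle, at 1.03, was 0.87 centred on the median gene and 0.71 as a mean over cells. With 3 to 5 genes tested, these counts set no type apart. The median log2 ratio of all genes was furthest from 0 in stroma for age, at 0.20, then in smooth muscle for adult injury, at 0.15, and in stroma only for age, at 0.13.

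A list of 37 other genes of the pathway was read in the same way. Its stromal values are for the whole gate only, and the part of cells that also passed another gate was not tested. In the whole stroma gate 1 was higher and 2 were lower by 2-fold in neonatal injury (median log2 ratio 0.04 against -0.03 for all genes), 4 higher and 5 lower in adult injury (0.24 against 0.07), and 2 higher and 4 lower in the age comparison (0.02 against 0.20). The shares were below those of all genes in each case. Among the 9 genes of processing and binding, the median was 0.44 in neonatal injury, 0.11 in adult injury and -0.89 for age. The 17 adaptors and effectors lay nearer 0 in neonatal injury, with a median of 0.04 and 0 past 2-fold.

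Furin, a protease that cleaves growth factor precursors, was higher in the whole stroma gate after injury at both ages. It was at 45.1 and 101 CPM in neonate control and injury and at 42.9 and 161 CPM in the adult libraries, log2 ratios of 1.17 (1.11 to 1.23) and 1.91 (1.83 to 1.98). Src, a kinase that PDGF receptors recruit, was at 13.8 and 27.4 CPM in neonates and 11.6 and 37.4 in adults, with ratios of 0.99 (0.88 to 1.10) and 1.69 (1.55 to 1.84). Of the Sprouty genes, which restrain receptor tyrosine kinase signalling, each of the 3 listed went the same way at both ages. Spry4 was lower after injury, at -1.29 (-1.40 to -1.19) in neonates and -1.02 (-1.19 to -0.86) in adults. Spry2 was higher, at 0.41 (0.36 to 0.45) and 1.26 (1.17 to 1.35). Spry1, named here after its values were seen, was lower, at -0.50 (-0.55 to -0.44) and -1.24 (-1.34 to -1.13). The proteoglycan gene Cspg4 was lower in neonatal injury, with 51.8 and 23.1 CPM.

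Pik3r1, the regulatory subunit of PI3 kinase, was lower in the whole stroma gate after adult injury, at 331 and 87.0 CPM, a ratio of -1.93 (-1.98 to -1.88). Between control libraries the widest gaps of the list were Lrp1, an endocytic receptor, at 224 CPM in neonates and 875 in adults, and Plau, the urokinase that can activate PDGF-D, at 10.9 and 36.7 CPM. Pik3r1 was at 124 and 331 CPM. Spry2 was higher in neonates, at 101 against 34.1 CPM.

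Across 43 pools of 1 cell type in 1 library, the level of Pdgfra was most like that of Lum (r = 0.91), Cpxm1 (0.88) and Angptl1 (0.85), as Pearson's r of log2(CPM + 1) among 8908 genes. Pdgfrb was most like Ednra, Pcdh19 and Cald1, each at 0.90. The nearest gene was F11r for Pdgfb (0.84), Oxct1 for Pdgfc (0.79) and Fam13c for Pdgfd (0.92). Among the members themselves the highest r was 0.76, between Pdgfd and Pdgfrb, and the lowest -0.51, between Pdgfb and Pdgfra. These pools share libraries, depth and cells that passed stroma and another gate, so r describes them and carries no test.

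In the smaller immune and erythroid types, with 10 pools of at least 50 cells, PDGF genes were sparse. Median levels ran from 4.86 CPM for Pdgfc to 23.6 for Pdgfra. The highest single value was 125 CPM of Pdgfra in mast-gated cells of neonate control, 80 of whose 156 cells also passed the stroma gate.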

How the data were processed

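The authors deposited filtered matrices of whole-number UMI counts per gene and barcode from 4 libraries; per the file headers the software was Cell Ranger 8.0.1, and per the submitters' processing notes the build was GRCm39. Other settings are not given in the sources used here. A barcode was dropped if it had under 500 genes, under 1000 UMIs or over 15% of UMIs from mitochondrial genes. Doublets were scored with Scrublet in scanpy 1.11.5 and the top scores removed at 0.8% per 1000 barcodes.

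Cells were gated on markers, and the raw counts of each type with at least 50 cells were summed per library and divided by the sum over all genes (CPM). Intervals are exact Poisson for CPM and exact binomial for ratios, at 95%. Ratios had 0.5 counts added. A gene was called past 2-fold among those with at least 50 UMIs in the compared pools together. Thinned shares were computed for 1000 UMIs per cell. The work used numpy 2.4.6, scipy 1.17.1 and pandas 2.3.3 and was tested on simulated data. UMI counts of 1 library give no replicate error, so no test between groups was run.

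The members and gene lists were chosen with earlier results of these data known. The 6 members were all named, with the 4 pathway genes of largest stromal ratio per comparison and the genes most like each member, among those with at least 50 CPM in a pool. The genes most like Pdgfa are not reported here. Alternatives changed the filters, doublet removal, gates, scaling and counts added.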

Additional observations from a re-analysis of the deposited data

Results flagged for a closer look

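For 9 pairings of gene and cell type with at least 50 UMIs in each comparison the log2 ratio of injury to control had opposite signs in neonates and adults with both counting intervals clear of 0. Lymphatic Pdgfb (-0.08 and 1.98), pericyte Pdgfra (0.85 and -0.21) and smooth muscle Pdgfc (0.59 and -1.93) also had opposite signs, each with 1 interval that held 0. Each age had 1 injured and 1 control library, so the difference between ages was not tested.

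In stroma, Pdgfra gave 0.40 in neonates and -0.39 in adults, a difference of 0.79. In blood endothelium, Pdgfd gave 0.45 and -0.81, a difference of 1.26, and Pdgfa gave -0.61 and 0.57, a difference of -1.18. With cells limited to 2 UMIs of Col1a1, Pdgfd was at 231 and 280.4 in neonates and 666 and 603 CPM in adults, control first. The adult injury ratio of Pdgfd was then -0.14. Pdgfa so limited was at 15.4 and 13.5 CPM in neonates and 39.4 and 54.4 CPM in adults. Endothelial Pdgfra gave -1.49 and 2.26, a difference of -3.75. With cells limited to 2 UMIs of Col1a1 these were 0.11 and -0.57. The limited Pdgfra levels were 2.43 and 2.86 CPM in neonates and 6.00 and 3.30 CPM in adults, control first. Such low levels do not settle either sign. In lymphatic endothelium, Pdgfa gave 0.60 and -0.64, a difference of 1.24, and Pdgfd gave -0.50 and 0.83, a difference of -1.33. Mural markers summed to 644, 770, 173 and 569 CPM in the lymphatic gate, and their part in these ratios was not tested. With 1 more marker required, lymphatic Pdgfa was at 127, 153, 155 and 102 CPM. Lymphatic Pdgfd was then at 88.3, 67.5, 69.8 and 91.8 CPM. The first value of each came from 22 cells.

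In pericytes, Pdgfrb gave 0.37 and -0.89, a difference of 1.26, with 183 of the 186 adult injury cells also in the stroma gate. In smooth muscle, Pdgfd gave 1.93 and -2.46, a difference of 4.39, with 51 cells in adult injury. In macrophages, Pdgfc gave 1.42 and -1.23, a difference of 2.65.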

How the results depend on the processing

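Each of 117 log2 ratios was recomputed under the alternatives that applied to it, giving 1033 values. Of these 827 moved by less than the counting interval, 202 moved by more and 4 went from past 2-fold to the opposite sign. In all, 47 values changed sign and 69 changed side of 2-fold. The alternatives limiting other types to 2 UMIs of Col1a1, requiring a further pericyte marker, and splitting stroma only into subsets were chosen after seeing the data. No paired analysis was possible because each group held 1 library, and for the same reason none was left out in turn.

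The 4 were endothelial Pdgfra with cells limited to 2 UMIs of Col1a1, 0.11 for neonatal injury (-1.49 before) and -0.57 for adult injury (2.26 before). Myogenic Pdgfra for age was -0.38 under the same limit (2.55 before). It was then at 3.65 CPM in neonate control and 3.99 CPM in 62 cells of adult control. Before the limit adult control held 3.03 CPM (0.367 to 11.0). Limited endothelial Pdgfra was at 2.43 to 6.00 CPM, so none of these 3 new signs is settled. Pericyte Pdgfc for neonatal injury was -0.36 with 1 more marker required (1.05 before).

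For stromal Pdgfra, neonatal injury (0.40) was 0.27 in stroma only, 0.35 with at least 10 UMIs of Col1a1, 0.52 scaled without abundant genes and 0.62 with Y-positive cells. Adult injury (-0.39) was -0.32 in stroma only, -0.34 with at least 1 UMI of Col1a1, -0.32 scaled without abundant genes, -0.46 centred on the median gene and -0.52 as a mean over cells. Age (-0.80) was -0.46 in stroma only, -0.66 with at least 10 UMIs of Col1a1, -1.0 centred and -0.87 as a mean over cells.

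For stromal Pdgfrb, neonatal injury (0.63) was 0.92 in stroma only, 0.76 with at least 10 UMIs of Col1a1, 0.75 scaled without abundant genes, 0.53 as a mean over cells and 0.44 with Y-positive cells. Adult injury (0.78) was 0.62, 0.88, 0.85 and 0.52 under the first 4 of these, 0.68 with at least 1 UMI of Col1a1 and 0.71 centred. Age (-0.88) was -1.22 in stroma only, -0.98 with at least 10 UMIs of Col1a1, -1.08 centred and -1.04 as a mean over cells.

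For endothelial Pdgfb, neonatal injury (0.29) was 0.15 with 1 more marker, adult injury (0.18) was 0.49 with 1 more marker and 0.63 with at most 2 UMIs of Col1a1, and age (0.01) was 0.18 with 1 more marker and -0.17 as a mean over cells. Stromal Pdgfb for neonatal injury was -0.09 and macrophage Pdgfa -0.21 with Y-positive cells (0.53 and 0.55 before), and stromal Pdgfd for age was 0.34 in stroma only (-0.12 before). The cause of these shifts was not tested. Counting depth limits Pdgfb in stroma and pericytes and Pdgfc in endothelium, among others. In adult control it also limits Pdgfd and Pdgfrb in macrophages, at 0.537 and 1.07 CPM, and Pdgfb and Pdgfd in myogenic cells, both at 0.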
